A study of Homo sapiens with 24 samples.

Results

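The type I interferon signalling chain was examined through 9 genes chosen by name: the receptor subunits IFNAR1 and IFNAR2, the kinases JAK1 and TYK2, the signal transducer STAT2 and the interferon regulatory factors IRF1, IRF3, IRF7 and IRF9. These are 9 of the 28277 genes listed by symbol in both count tables, and all 9 passed the filter on low counts in each table. Cells that meet type I interferon bind it with a receptor made of IFNAR1 and IFNAR2, which carry the kinases TYK2 and JAK1. The kinases phosphorylate STAT2, which joins IRF9 in ISGF3, the complex that switches on interferon-stimulated genes. Upstream, IRF3 and IRF7 start the transcription of interferon genes when a cell senses foreign or misplaced nucleic acid, while IRF1 binds related promoter elements, and IRF7, IRF9, STAT2 and IRF1 are themselves known interferon-inducible genes.

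RNA was sequenced from PEO1 and PEO4, high-grade serous ovarian carcinoma lines set up from one patient before and after resistance to chemotherapy arose. The A pair held untreated PEO1 with defective BRCA2 (genotype given as WT for that line) and untreated PEO4 (also WT, with BRCA2 function regained by reversion), both grown with added sodium pyruvate. The B pair held PEO1 labelled BRCA2+, cells in which a spontaneous reversion restored BRCA2 function (PEO1 BRCA+), and PEO4 labelled WT, each untreated or given 5 µM of pyridostatin (PDS), a small molecule that binds G-quadruplexes (G4s), for 2 h or 6 h. Each of the 8 groups had 3 biological replicates, 24 libraries in all, and no vehicle was named for the untreated cells. The untreated libraries of the B pair were labelled 0 h, so none was matched in time to 2 h or 6 h. Whether the BRCA2+ cells are 1 clone is not given in the sources used here, so each line stands for one stock of cells. The A and B pairs were normalised separately, and levels set side by side across them are descriptive.

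Total counts per library were 32528913 to 63882077 in the A pair. In the B pair, every PDS library (33260167 to 43713947 counts) was deeper than every untreated library (18699929 to 22375644), and the share of counts on ribosomal RNA genes was 0.0163% to 0.0369% with PDS against 0.217% to 0.474% without. Both values therefore moved with PDS, and their part in the results was not tested. All 8 ovarian carcinoma markers (PAX8, WT1, MUC16, EPCAM, KRT7, KRT8, KRT18 and CDH1) were detected in every group, CD3E had 0 counts in all 24 libraries and PTPRC at most 2. The leukocyte sum, carried by CD68 and CD14, was 33.8 to 57 CPM in untreated PEO4 of the B pair and 70.2 to 83.8 CPM with PDS. The summed level of the 4 fibroblast markers, nearly all of it COL1A1, was 13.8 to 29.2 CPM (counts scaled to library size with TMM factors) in untreated PEO4 of the B pair, 5.14 to 6.83 CPM after 2 h of PDS and 2.34 to 3.51 CPM after 6 h, and the 3 endothelial markers summed to 1.31 to 2.72, 0.408 to 0.764 and 0.061 to 0.191 CPM in the same order. In PEO1 BRCA+ the fibroblast sum was 5.09 to 7.10 CPM untreated and 2.64 to 3.44 CPM with PDS, and in the A pair it was 32.3 to 36.7 CPM in PEO1 and 5.70 to 10.8 CPM in PEO4. The part of these markers in the results was not tested. BRCA2 gene counts were no check of the labels, because a reversion within the gene leaves the reads countable, and its mean level was 8.24 CPM in PEO1 A and 8.24 CPM in PEO1 BRCA+.

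The promoters of IRF1 and IRF9 are shown because both genes changed and both windows held a gamma-activated site (GAS, TTCNNNGAA on either strand), a type of element bound by STAT proteins. Each window runs from 250 bases before the RefSeq gene start to 50 bases after it (GRCh38.p14, RefSeq), is written 5′ to 3′ on the strand of the gene, and has the GAS letters in capitals. IRF1 lies at chr5:132490724-132491023 on the minus strand and IRF9 at chr14:24161015-24161314 on the plus strand.
IRF1: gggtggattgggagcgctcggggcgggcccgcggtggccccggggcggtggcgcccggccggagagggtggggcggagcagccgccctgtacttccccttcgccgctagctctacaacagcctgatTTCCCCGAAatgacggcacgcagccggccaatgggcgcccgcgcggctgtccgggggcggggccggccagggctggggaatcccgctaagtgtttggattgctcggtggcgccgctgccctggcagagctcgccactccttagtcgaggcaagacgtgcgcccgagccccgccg
IRF9: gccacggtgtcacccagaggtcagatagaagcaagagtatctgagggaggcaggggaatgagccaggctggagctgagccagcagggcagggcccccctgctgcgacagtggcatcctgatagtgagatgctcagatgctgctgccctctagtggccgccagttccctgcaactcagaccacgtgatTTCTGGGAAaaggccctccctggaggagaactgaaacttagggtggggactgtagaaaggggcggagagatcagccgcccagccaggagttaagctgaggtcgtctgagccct

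The IRF1 element lies from -124 to -116 relative to the gene start and the IRF9 element from -63 to -55. A GAS was found in 7.66% of the 35116 promoter windows of the same length. Since PDS binds G4s, the windows were also searched on both strands for the G4 motif, 4 runs of at least GGG parted by short loops, which 24.9% of all windows held. IRF1 held 2 such matches, from -250 to -224 and from -72 to -47, TYK2 held 1 just after its start, and 1 of 3 JAK1 windows held 1. The core of the interferon-stimulated response element, GAAANNGAAA, was in 3.57% of all windows and in none of the 9 windows available for IFNAR1, JAK1, TYK2, STAT2, IRF1 and IRF9. These letter matches are descriptions of sequence and not measured sites of binding. Promoter windows of IFNAR2, IRF3 and IRF7 were not analysed here.

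Levels of different members were compared per length, as CPM per kilobase of the canonical transcript. In untreated PEO1 BRCA+, JAK1 (41.6 ± 0.9 CPM per kilobase, SD, n = 3) and IRF3 (40.7 ± 2.17) stood highest, TYK2 followed at 22.5 ± 0.137, and the other 6 members lay between 1.83 for IRF7 and 8.07 for IRF9. In untreated PEO4 of the B pair, IRF9 stood first at 57.8 ± 6.96 CPM per kilobase, above IRF3 at 53.1 ± 3.34 and JAK1 at 35.5 ± 1.24, although the spreads of IRF9 and IRF3 overlapped. The receptor subunits were low in both lines, with IFNAR2 at 2.98 ± 0.306 CPM per kilobase in PEO1 BRCA+ and 2.87 ± 0.145 in PEO4. IRF7 had 52 to 84 counts per library over the 9 PEO1 BRCA+ libraries, so its values there rest on few reads.

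**Figure D1:**
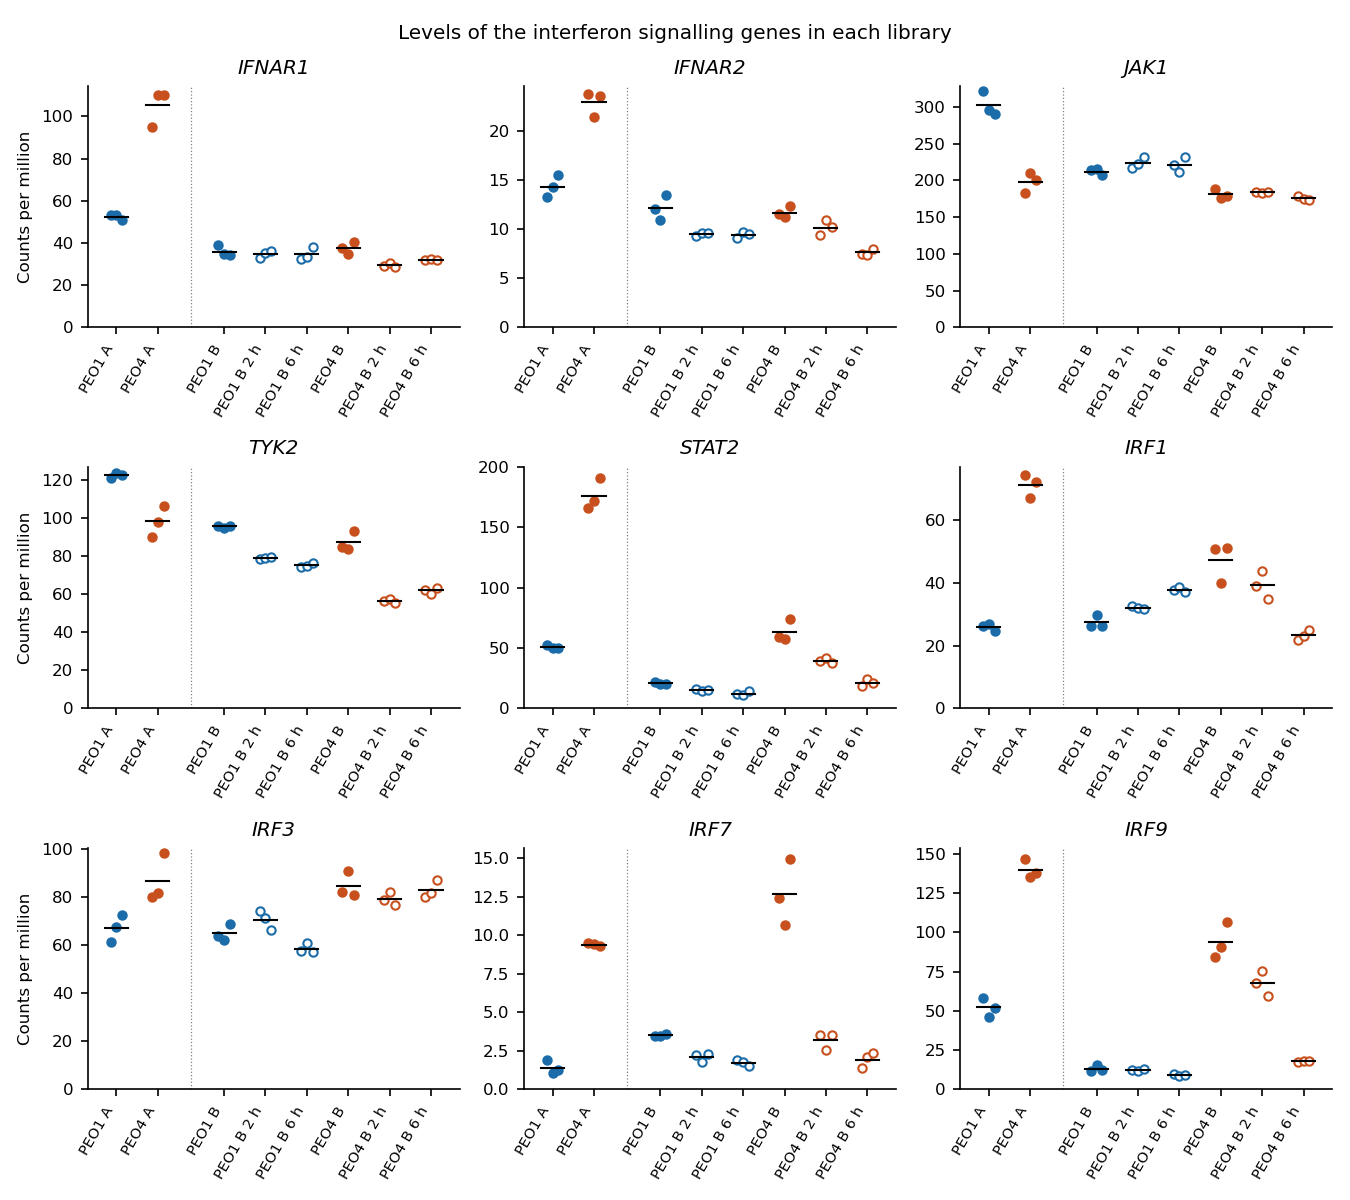
Level of each gene in CPM (linear axis from 0) in each of the 24 libraries; blue is PEO1, orange is PEO4, filled points are untreated, open points had PDS for 2 h or 6 h, and black lines are means of 3. The dotted line parts the separately normalised A and B pairs. STAT2, IRF7 and IRF9 stood higher in PEO4 than in PEO1 in both untreated pairs and fell in PEO4 after PDS, while JAK1 stayed within 173.5 to 188 CPM in the 9 PEO4 libraries of the B pair.

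The first question was how the lines differed before treatment. In both pairs STAT2, IRF1, IRF3, IRF7 and IRF9 were higher in PEO4, and JAK1 and TYK2 were lower. The receptor genes IFNAR1 and IFNAR2 were higher in PEO4 in the A pair and did not pass the test in the B pair. A gene passed at an adjusted p below 0.05 (edgeR's quasi-likelihood test, Benjamini-Hochberg correction across every gene tested in the table) and was called if its log2 fold change was also above 1 or below -1. All 9 members passed in the A pair, 7 higher and 2 lower in PEO4, where 30.1% of all tested genes passed as higher and 31.6% as lower. In the B pair 5 members passed as higher and 2 as lower, against 34% and 34.6% of all tested genes. Called members numbered 5 in the A pair (25.8% of all genes were called) and 3 in the B pair (24.8%). With 9 genes, the B pair count is close to that background. Across the 9 the median log2 fold change stood at 1.002 in the A pair and 0.38 in the B pair, beside -0.006 and -0.001 over all genes.

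IRF9 (chr14:24161265-24166565, plus strand), the DNA-binding subunit of ISGF3, gave the widest difference of the 9 in the B pair. Its level was 11.7, 15.4 and 12.2 CPM in the 3 untreated PEO1 BRCA+ libraries and 84.4, 90.9 and 106 CPM in the untreated PEO4 libraries. Each PEO4 library was thus far above every PEO1 BRCA+ library, a 7.13-fold difference (log2 fold change 2.83 ± 0.103 SE, adjusted p = 9.46e-17). In the A pair it was 58.3, 46.4 and 51.9 CPM in PEO1 and 147, 135 and 138 CPM in PEO4, with no overlap and a 2.68-fold difference (log2 1.42 ± 0.0881, adjusted p = 3.26e-08). PEO1 thus carried a mean of 52.2 CPM in the A table and 13.1 CPM in the B table, a contrast that was not tested because the tables were normalised separately.

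STAT2 (chr12:56341597-56360107, minus strand), the transducer that joins IRF9, differed by similar amounts in both pairs. In the B pair it stood at 21.6, 20.3 and 20.1 CPM in PEO1 BRCA+ and 59.3, 57.6 and 74.0 CPM in PEO4. The A pair gave 52.1, 50.2 and 49.7 CPM in PEO1 and 166, 172 and 191 CPM in PEO4. Neither pair overlapped, and PEO4 was 3.08-fold higher in the B pair (log2 1.62 ± 0.101, adjusted p = 1.27e-12) and 3.48-fold higher in the A pair (log2 1.799 ± 0.0765, adjusted p = 1.12e-09).

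IRF7 (chr11:612555-615950, minus strand), the inducible factor for interferon genes, was scarce in PEO1. It was 1.88, 1.07 and 1.24 CPM in PEO1 A and 9.47, 9.41 and 9.30 CPM in PEO4 A, the widest difference of the 9 in that pair (6.68-fold, log2 2.74 ± 0.208, adjusted p = 1.99e-07). In the B pair it was 3.50, 3.47 and 3.60 CPM in PEO1 BRCA+ and 12.4, 10.6 and 14.97 CPM in PEO4. All PEO4 libraries were again above all PEO1 BRCA+ libraries (3.60-fold, log2 1.85 ± 0.173, adjusted p = 8.40e-10).

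IRF1 (chr5:132481609-132490773, minus strand), an activator of interferon-stimulated genes, was 26.2, 26.8 and 24.7 CPM in PEO1 A and 74.3, 66.9 and 72.1 CPM in PEO4 A. The B pair gave 26.4, 29.7 and 26.3 CPM in PEO1 BRCA+ and 50.9, 39.9 and 51.0 CPM in PEO4. No libraries overlapped, with log2 fold changes of 1.46 ± 0.0797 in the A pair and 0.78 ± 0.0901 in the B pair (adjusted p = 1.06e-08 and 3.41e-08). IRF3 (chr19:49659572-49665857, minus strand), the constitutive factor downstream of nucleic acid sensors, differed less, by 1.29-fold in the A pair and 1.30-fold in the B pair (adjusted p = 0.00474 and 5.23e-06). IRF3 overlaps BCL2L12, IRF1 overlaps IRF1-AS1, JAK1 overlaps RAVER2 and IFNAR2 overlaps IL10RB-DT, each on the other strand. The strand setting of the counting is not given in the sources used here, so reads of such partners cannot be told apart.

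Upstream of these factors the pairs gave different pictures. IFNAR1 (chr21:33324395-33359864, plus strand), the receptor subunit that carries TYK2, was 53.5, 53.2 and 50.8 CPM in PEO1 A and 95.1, 110.2 and 110.3 CPM in PEO4 A. PEO4 A was 2.00-fold higher without overlap (log2 1.002 ± 0.0791, adjusted p = 2.81e-07). This call sits on the limit, and it was missed with the replicate number as a block (0.9996) and without PEO1 A replicate 3 or PEO4 A replicate 2 or 3 (0.97 to 0.98), leaving 4 called members. In the B pair it was 38.9, 34.7 and 34.3 CPM in PEO1 BRCA+ and 37.7, 34.9 and 40.4 CPM in PEO4, overlapping ranges with a log2 difference of 0.07 (95% interval -0.07 to 0.21, adjusted p = 0.419). IFNAR2 (chr21:33229938-33265664, plus strand), the subunit that binds interferon most tightly, was 1.599-fold higher in PEO4 A (adjusted p = 0.000108), and in the B pair differed by -0.05 (95% interval -0.24 to 0.13, adjusted p = 0.63). The difference between the pairs was not tested.

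The kinases ran the other way. JAK1 (chr1:64833229-65067746, minus strand) was 320.9, 295.1 and 290.7 CPM in PEO1 A and 182.5, 209.9 and 200.4 CPM in PEO4 A, a log2 fold change of -0.61 ± 0.0796 (adjusted p = 2.43e-05). The B pair showed the same direction at a smaller size, -0.23 ± 0.0501 (adjusted p = 0.000285), with PEO1 BRCA+ at 213.4, 215.5 and 206.7 CPM and PEO4 at 188, 176 and 178.6 CPM. TYK2 (chr19:10350533-10380572, minus strand) was lower in PEO4 by a log2 fold change of -0.32 ± 0.0753 in the A pair and -0.13 ± 0.0506 in the B pair (adjusted p = 0.0027 and 0.0253). TYK2 no longer passed in the B pair, at adjusted p = 0.0545 to 0.122, when untreated PEO1 BRCA+ replicate 1 or 3 or PEO4 replicate 1 or 2 was left out, and at 0.127 when the untreated groups were fitted alone.

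**Figure D2:**
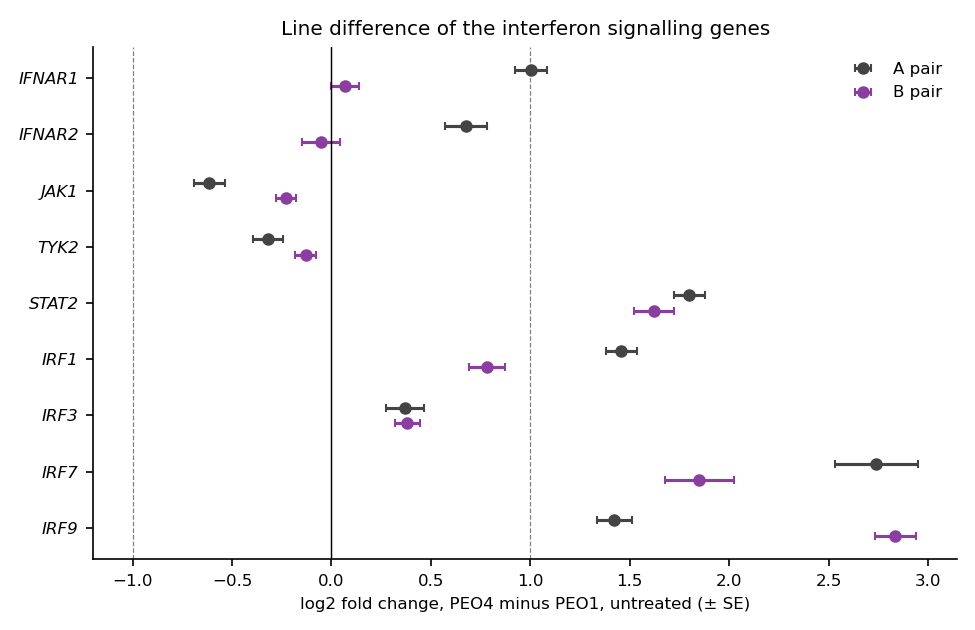
Fitted log2 fold change of PEO4 minus PEO1 (x axis) for each gene in the untreated A pair (grey) and B pair (purple); bars are ± SE, and dashed lines mark -1 and 1. IRF7 lies furthest to the right in the A pair (2.74) and IRF9 in the B pair (2.83), JAK1 and TYK2 lie to the left in both, and the receptor genes lie right of 0 in the A pair and near 0 in the B pair (0.07 for IFNAR1, -0.05 for IFNAR2).

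The output of the chain was read from 56 interferon-stimulated genes that hold none of the 9 members. This list was chosen with earlier results of these data known. In the A pair 52 of the 55 tested passed as higher in PEO4 and 0 as lower, with a median log2 fold change of 2.58 against -0.006 over all genes. The B pair gave 51 of 53 as higher and 0 as lower, with a median of 2.28 against -0.001. Among all tested genes 30.1% passed as higher and 31.6% as lower in the A pair, and 34% and 34.6% in the B pair. The list genes counted as lower were 0 at an unadjusted p below 0.05 and with DESeq2 too. Their summed level was 2119 to 2307 CPM in untreated PEO1 BRCA+ and 7083 to 9690 CPM in untreated PEO4, ranges that did not overlap. BST2, a membrane tether of budding viruses, rose from 2.22 ± 0.754 to 614 ± 87.4 CPM between PEO1 A and PEO4 A. BST2 had 1 to 3 counts per PEO1 BRCA+ library, against 756 to 2164 in PEO4 of the B pair. IFITM1, an inhibitor of virus entry, was 174-fold higher in PEO4 A and 364-fold higher in PEO4 of the B pair. The 364-fold value rests on 5 to 11 counts per PEO1 BRCA+ library, against 1792 to 3911 in PEO4. STAT2, IRF1, IRF3, IRF7 and IRF9 therefore stood higher in the line with more output in both pairs, IFNAR1 and IFNAR2 in the A pair, and JAK1 and TYK2 in neither. Levels of RNA alone do not show phosphorylation or location of the proteins, and which level bears on the output was not tested.

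Of 62 other genes of the pathway, 41 were tested in the A pair, with 17 higher and 10 lower in PEO4, and 39 in the B pair, with 13 higher and 16 lower. Their median log2 fold changes of 0.14 and -0.04 lay near the -0.006 and -0.001 of all genes. Of all genes 30.1% passed as higher and 31.6% as lower in the A pair, and 34% and 34.6% in the B pair. Among the 21 interferon ligands, 17 had 0 counts in all 24 libraries, interferon beta and interferon gamma included, and 18 had at most 3 counts in every library. Of the ligands with counts, IFNL1, a type III interferon that signals through another receptor pair to the same complex, had 6 to 24 counts in PEO1 A libraries and 141 to 223 in PEO4 A libraries (16.6-fold, adjusted p = 1.75e-06). B pair libraries held 0 to 2 counts of it in PEO1 BRCA+ and 39 to 53 in PEO4. IFNL2, a close copy of IFNL3 whose reads the counting could split, had 0 counts in PEO1 A and 10 to 20 in PEO4 A, at least 4.52-fold higher against a floor of 3 counts per library. The lowest genes in PEO4 were SOCS2 and CISH, inhibitors of cytokine signalling, at log2 fold changes of -5.87 and -4.19 in the A pair and -1.63 and -2.34 in the B pair. The SOCS2 value of the A pair rests on 4 to 8 counts per PEO4 library, against 291 to 584 in PEO1.

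The second question was how PDS changed these genes in PEO1 BRCA+. After 2 h IRF1 rose, while IFNAR2, TYK2, STAT2 and IRF7 fell, and after 6 h IRF3 and IRF9 had fallen as well. The 2 h and 6 h comparisons share their untreated libraries, so they are not independent. At 2 h 1 member passed as higher and 4 as lower, where 26.4% of all genes were higher and 26.2% lower, and 0 members were called against 7.57% of all genes. DESeq2's Wald test also called 0, and 5 members were below 0.05 without adjustment. At 6 h 1 passed as higher and 6 as lower, against 27% and 26%, and IRF7 was the 1 called member, against 8.13%. The bulk libraries do not tell fewer cells expressing a gene from less RNA per cell.

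IRF7 in PEO1 BRCA+ went from 3.50, 3.47 and 3.60 CPM to 2.27, 1.76 and 2.33 CPM at 2 h and 1.93, 1.79 and 1.53 CPM at 6 h. Every treated library was below every untreated one, with log2 fold changes of -0.74 ± 0.196 and -1.01 ± 0.201 (adjusted p = 0.00269 and 0.000163). The 6 h value lies at the limit for a call, and the call was lost without PDS 6 h replicate 3, without untreated replicate 3 and with no filter on low counts, the log2 fold change without single replicates being -1.08 to -0.91. STAT2 fell from 21.6, 20.3 and 20.1 CPM to 15.9, 14.7 and 15.4 CPM at 2 h and 11.6, 11.0 and 14.1 CPM at 6 h. These 3 sets did not overlap, and the change was -0.43 ± 0.105 at 2 h and -0.76 ± 0.107 at 6 h (adjusted p = 0.00138 and 3.05e-06).

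IRF1 was the member that moved up in this line. Its untreated levels of 26.4, 29.7 and 26.3 CPM became 32.7, 31.9 and 31.7 CPM at 2 h and 37.6, 38.8 and 37.2 CPM at 6 h. The sets did not overlap, with a log2 fold change of 0.22 ± 0.0896 at 2 h (adjusted p = 0.039) and 0.46 ± 0.0891 at 6 h (adjusted p = 0.000114). IRF1 no longer passed at 2 h when the libraries were scaled by library totals (adjusted p = 0.519) or by upper quartile (0.202), with a minimum count of 50 (0.0704), with the replicate number as a block (0.052) and without any of 5 of the 6 replicates (0.0544 to 0.114). At 6 h it passed under every alternative run.

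IRF9 stayed between 11.7 and 15.4 CPM in untreated and 2 h libraries of PEO1 BRCA+ and was 9.90, 8.76 and 9.48 CPM at 6 h, below all of them. Its change was -0.09 (95% interval -0.30 to 0.13) at 2 h and -0.49 ± 0.112 at 6 h (adjusted p = 0.525 and 0.000845). TYK2 fell by 0.28 and 0.35 on the log2 scale and IFNAR2 by 0.35 and 0.36 at 2 h and 6 h, all 4 passing. IFNAR1 and JAK1 did not pass at either time, with intervals at 6 h of -0.19 to 0.09 and -0.03 to 0.16. Under library totals IFNAR1 passed as lower, at -0.19 (adjusted p = 0.0377) and -0.20 (0.0293) at 2 h and 6 h. The sign of the JAK1 value turned, to -0.07 at 2 h and -0.08 at 6 h, when library totals set the scale. IRF3 was 63.9, 62.2 and 68.8 CPM untreated, 74.1, 71.2 and 66.3 CPM at 2 h and 57.8, 61.0 and 57.0 CPM at 6 h, a change of -0.15 ± 0.0607 at 6 h (adjusted p = 0.0427). IRF3 no longer passed with no filter on low counts or without any one of 4 of the 6 replicates, at adjusted p = 0.075 to 0.249.

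Between 2 h and 6 h in PEO1 BRCA+, 0 members passed as higher and 2 as lower, IRF3 (-0.27, adjusted p = 0.00644) and IRF9 (-0.40, adjusted p = 0.0252). Among all genes 3.96% were higher and 2.98% lower. At an unadjusted p below 0.05, 1 was higher and 3 lower, and DESeq2 passed 0 and 3. No member was called, against 0.17% of all genes, by edgeR or by DESeq2. IRF9 did not pass under library totals (adjusted p = 0.0514) or without any one of the 6 replicates (0.0503 to 0.118).

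In PEO4 more members passed as lower after PDS than in PEO1 BRCA+, by a small margin at 6 h (7 against 6). At 2 h IFNAR1, TYK2, STAT2, IRF1, IRF7 and IRF9 fell, and at 6 h IFNAR2 had fallen too, while JAK1 and IRF3 did not pass at either time. No member rose at either time with edgeR, at an unadjusted p below 0.05 or with DESeq2, where 33.3% of all genes passed as higher at 2 h and 34.6% at 6 h. As lower, 6 members passed at 2 h and 7 at 6 h, against 32% and 35.2% of all genes. The called members were IRF7 alone at 2 h (17.4% of all genes were called) and IRF7, IRF9, STAT2 and IRF1 at 6 h (22.6%). The members' median log2 fold change was -0.36 at 2 h and -0.62 at 6 h, beside 0.00 and -0.03 for all genes.

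IRF7 gave the fastest fall. From 12.4, 10.6 and 14.97 CPM untreated it went to 3.55, 2.58 and 3.50 CPM at 2 h and 1.36, 2.07 and 2.39 CPM at 6 h. No libraries of the 3 times overlapped, with a 3.94-fold fall at 2 h (log2 -1.98 ± 0.166, adjusted p = 1.88e-10) and a 6.61-fold fall at 6 h (log2 -2.72 ± 0.177, adjusted p = 1.39e-12). After 6 h the IRF7 libraries of PEO4 spanned those of PEO1 BRCA+ at 6 h (1.53 to 1.93 CPM), where before treatment they had stood apart.

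IRF9 fell late. Its levels were 84.4, 90.9 and 106 CPM untreated, 68.1, 75.5 and 59.7 CPM at 2 h and 17.3, 18.1 and 17.96 CPM at 6 h. The 3 sets did not overlap, and most of the fall lay between 2 h and 6 h. The log2 fold change was -0.47 ± 0.0889 at 2 h and -2.40 ± 0.0966 at 6 h (adjusted p = 7.05e-05 and 1.77e-15), a 5.28-fold fall at 6 h. All 3 PEO4 libraries at 6 h were still above those of PEO1 BRCA+ at 6 h (8.76 to 9.90 CPM) and just above untreated PEO1 BRCA+ (11.7 to 15.4 CPM).

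STAT2 went from 59.3, 57.6 and 74.0 CPM to 39.5, 42.2 and 37.3 CPM at 2 h and 18.8, 23.98 and 21.3 CPM at 6 h. The sets did not overlap, and the fall was 1.61-fold at 2 h and 2.98-fold at 6 h (adjusted p = 1.07e-06 and 1.91e-12). At 6 h the PEO4 libraries overlapped those of untreated PEO1 BRCA+ (20.1 to 21.6 CPM) and all lay above those of PEO1 BRCA+ at 6 h (11.0 to 14.1 CPM). IRF1 was 50.9, 39.9 and 51.0 CPM untreated, 39.1, 43.9 and 34.7 CPM at 2 h and 21.8, 23.0 and 25.1 CPM at 6 h. The 2 h libraries overlapped the untreated ones, and the 2 h change (log2 -0.27 ± 0.0862, adjusted p = 0.00788) no longer passed without PDS 2 h replicate 3 or without untreated replicate 1 or 3, at adjusted p = 0.051 to 0.0698, and at 0.0558 with the compared groups fitted alone. At 6 h IRF1 was 2.03-fold lower (log2 -1.02 ± 0.0887, adjusted p = 2.79e-10), and PEO4, higher than PEO1 BRCA+ before treatment, lay below it (37.2 to 38.8 CPM) in every library. The 6 h value of IRF1 lies near the limit for a call, which it missed with no filter on low counts (-0.99), without PDS 6 h replicate 1 (-0.97) and without untreated replicate 1 or 3 (-0.96 each), leaving 3 called members, while it passed the test each time.

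Among the receptor and kinase genes TYK2 fell by 0.63 on the log2 scale at 2 h and 0.49 at 6 h (adjusted p = 8.72e-11 and 4.54e-09), and IFNAR1 by 0.36 and 0.23 (adjusted p = 0.00011 and 0.00552). IFNAR2 was 11.5, 11.2 and 12.3 CPM untreated and 7.51, 7.35 and 8.02 CPM at 6 h, a fall of 0.62 ± 0.0937 (adjusted p = 2.49e-06), with -0.20 ± 0.0913 at 2 h (adjusted p = 0.0537). The 2 h value passed under 6 alternatives, among them library totals (0.00298) and DESeq2's Wald test (0.0499). JAK1 was within 173.5 to 188 CPM in all 9 PEO4 libraries, and its 6 h change of -0.04 had a 95% interval of -0.14 to 0.06. IRF3 was within 76.9 to 90.8 CPM, with a 6 h change of -0.03 and an interval of -0.14 to 0.09. Library totals, which move the median of all genes by -0.16 at 6 h in PEO4, gave passing values of -0.20 for JAK1 and -0.19 for IRF3, so each changed little relative to that median. Upper quartile scaling, with the median of all genes at -0.14, also gave passing 6 h values, -0.16 for JAK1 and -0.14 for IRF3. At 2 h IRF3 passed under library totals (-0.22) and upper quartile (-0.16).

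Between 2 h and 6 h in PEO4, 1 member passed as higher (TYK2, log2 0.14 ± 0.0504, not passing under library totals, upper quartile and without replicate 3 of either time, at adjusted p = 0.0501 to 0.135) and 5 as lower, against 28.9% and 31.3% of all genes. IRF9 was the 1 called member, against 12% of all genes, at -1.93 ± 0.0953 (adjusted p = 4.65e-13). STAT2 changed by -0.89, IRF1 by -0.75, IRF7 by -0.75 and IFNAR2 by -0.41, all passing. IRF7 had lost 1.98 of its 2.72 log2 units by 2 h, whereas IRF9 lost 1.93 of its 2.40 after that.

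**Figure D3:**
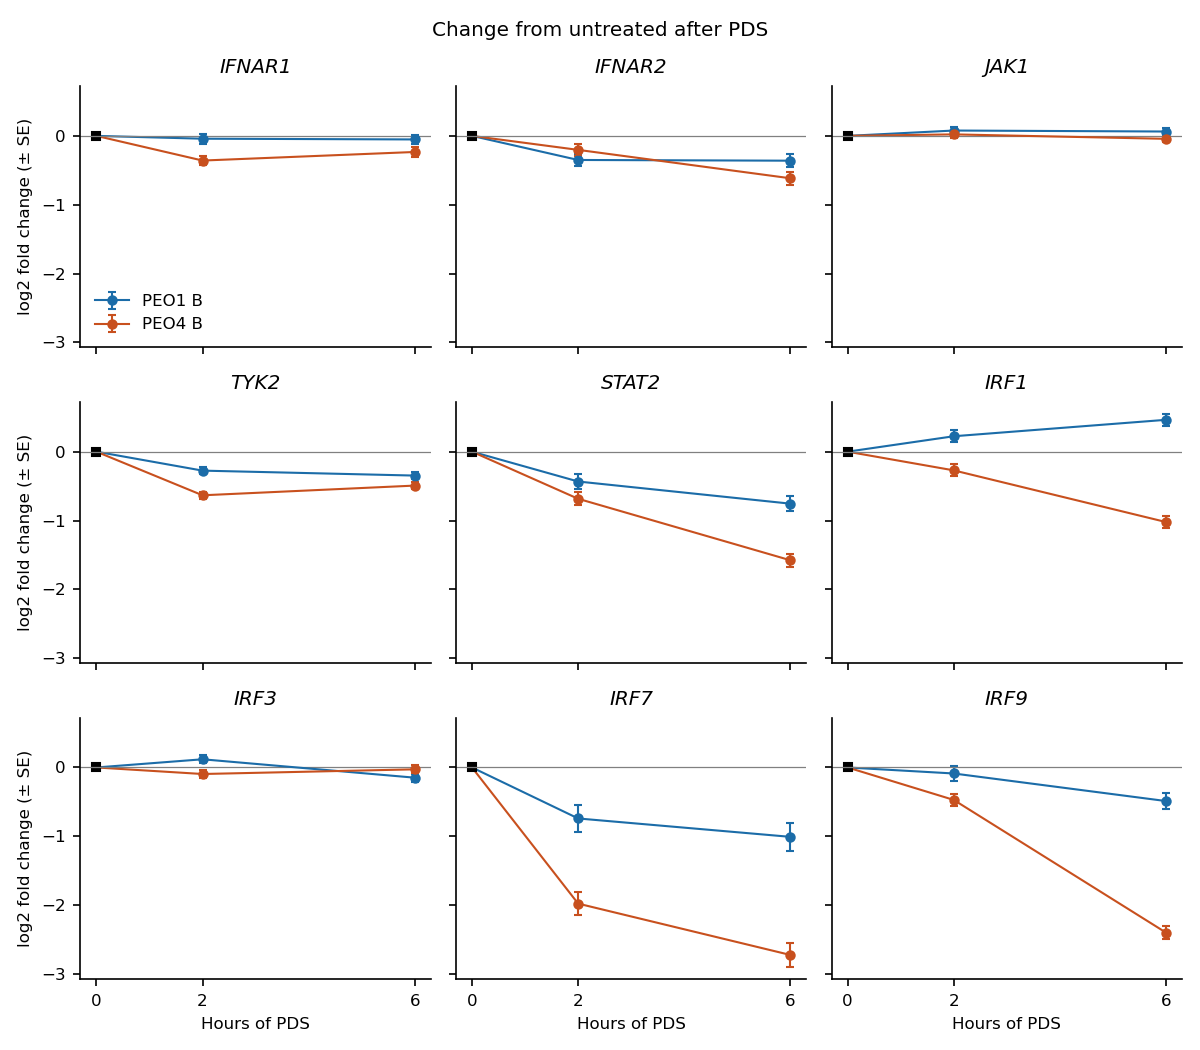
Fitted log2 fold change from untreated (y axis, bars ± SE) after 2 h and 6 h of PDS (x axis, hours) for each gene in PEO1 BRCA+ (blue, labelled PEO1 B) and PEO4 (orange); the black square at 0 h is the untreated reference, which both times share. IRF7 fell to -2.72 and IRF9 to -2.40 in PEO4, IRF1 rose to 0.46 in PEO1 BRCA+ and fell to -1.02 in PEO4, and JAK1 stayed near 0 in both lines.

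The difference between the responses of the lines was tested directly as an interaction of line and PDS. At 2 h 5 members responded more negatively in PEO4 and 0 more positively, where 18% of all genes were lower and 19.3% higher. Without adjustment and with DESeq2, 6 were lower and 0 higher. IRF3, at -0.21 ± 0.085, lay just above the limit with edgeR (adjusted p = 0.0504). It passed under some alternatives, among them DESeq2's Wald test (0.0286). IRF7 was the 1 called (-1.24 ± 0.257, adjusted p = 0.000471), against 11% of all genes. IRF1 differed by -0.50 ± 0.124, TYK2 by -0.36 ± 0.0713, IFNAR1 by -0.32 ± 0.101 and IRF9 by -0.38 ± 0.141, the last not passing under library totals (adjusted p = 0.0752), under upper quartile (0.0618) with the compared groups alone (0.0671) and without single replicates (up to 0.102). At 6 h 4 members were lower and 0 higher, against 23% and 24.4% of all genes. Without adjustment 4 were lower and 0 higher, and DESeq2 passed 5 and 0. IRF9 (-1.91 ± 0.147, adjusted p = 6.54e-10), IRF7 (-1.72 ± 0.27, adjusted p = 1.33e-05) and IRF1 (-1.49 ± 0.126, adjusted p = 1.36e-09) were called, against 14.8% of all genes, and STAT2 passed (-0.82 ± 0.144, adjusted p = 6.18e-05). For IFNAR1, IFNAR2, JAK1, TYK2 and IRF3 the 6 h difference did not pass, with JAK1 at -0.11 (95% interval -0.24 to 0.03) and IRF3 at 0.12 (-0.05 to 0.29). TYK2 was at -0.15 (-0.285 to -0.006). It passed with a minimum count of 50 (edgeR adjusted p = 0.0424) and with DESeq2's Wald test (0.0468). IFNAR2, at -0.26 (-0.51 to 0.001), passed without untreated PEO1 BRCA+ replicate 3 (edgeR adjusted p = 0.0428).

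The output list was set beside these responses. In PEO1 BRCA+ 23 of 53 genes rose and 4 fell at 2 h, and 11 rose and 6 fell at 6 h, with medians of 0.28 and 0.05 against -0.03 and -0.03 over all genes. Of all genes 26.4% rose and 26.2% fell at 2 h, and 27% rose and 26% fell at 6 h. These counts depended on scaling, with 13 up and 10 down at 2 h and 6 up and 13 down at 6 h under library totals, and 8 up and 11 down at 6 h under upper quartile. Without untreated replicate 3 they were 14 and 6 at 2 h and 7 and 8 at 6 h, so the 6 h balance had no stable direction. Leaving out any other single replicate gave 8 to 13 up and 2 to 4 down at 6 h. Its summed level of 2119 to 2307 CPM became 2415 to 2481 CPM at 2 h and 2247 to 2279 CPM at 6 h, the last within the untreated range. IFI44, an interferon-induced antiviral gene, rose 2.43-fold at 2 h (adjusted p = 7.6e-08) in this line. In PEO4 9 rose and 34 fell at 2 h, and 1 rose and 49 fell at 6 h, with medians of -0.68 and -1.31 against 0.00 and -0.03. Of all genes in PEO4 33.3% rose and 32% fell at 2 h, and 34.6% rose and 35.2% fell at 6 h. The summed level went from 7083 to 9690 CPM through 5305 to 5755 CPM to 3319 to 3815 CPM, and the 3 ranges did not overlap. IFI44L fell 29.6-fold and BST2 29.5-fold at 6 h, while ISG20, an exonuclease, rose 3.23-fold at 2 h and 1.33-fold at 6 h. At 6 h the response of 46 of 53 was lower in PEO4 than in PEO1 BRCA+ and of 0 higher (median -1.45). Of all genes 23% were lower and 24.4% higher. Without adjustment and with DESeq2, 49 of the list were lower and 0 higher.

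**Figure D4:**
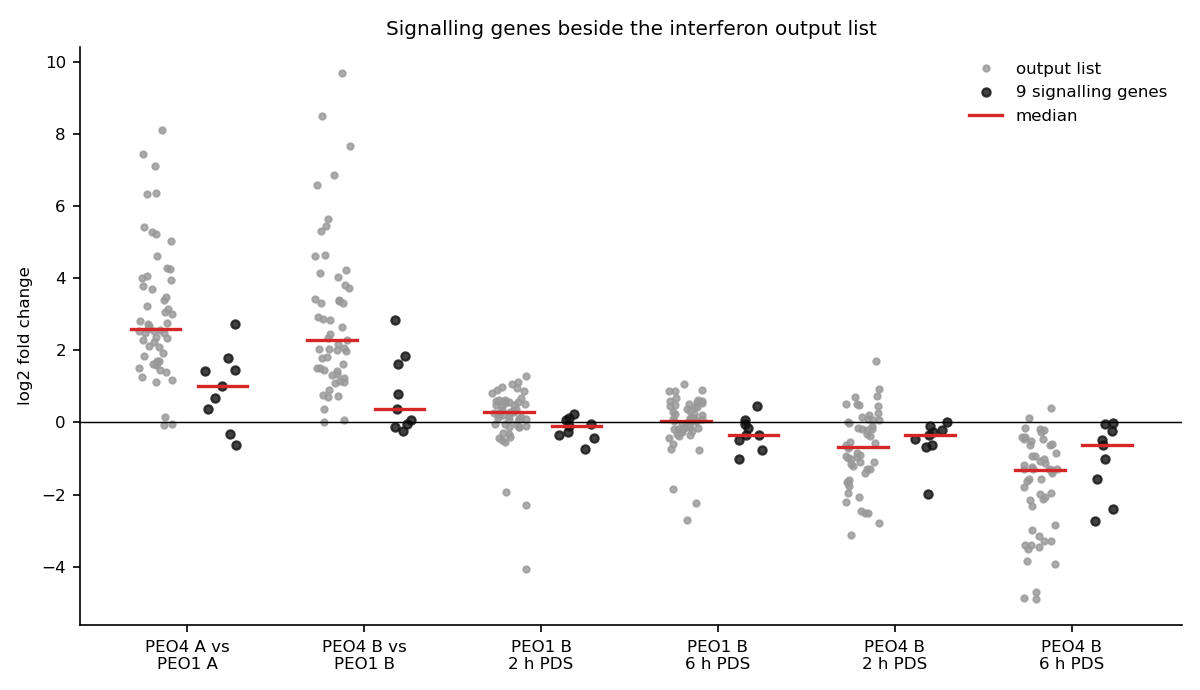
Log2 fold change (y axis) of each tested gene of the interferon output list (grey) and of the 9 signalling genes (black) in 6 comparisons (x axis); red lines are medians, and sideways spread within a column carries no value. Both medians lie above 0 between the untreated lines (2.58 and 2.28 for the output list) and below 0 in PEO4 after 6 h of PDS (-1.31 and -0.62), and the output list has the wider range.

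Set side by side with the output, STAT2, IRF7, IRF9 and IRF1 were higher in untreated PEO4, where the output was higher, and lower in PEO4 after 6 h of PDS, where the output was lower. These genes are interferon-inducible themselves, so the match cannot tell signalling level from output. IRF3 was higher in untreated PEO4 as well and did not pass there after PDS. In PEO1 BRCA+ more output genes rose than fell at 2 h, while the balance at 6 h turned with the scaling. In that line STAT2 and IRF7 fell at both times, and IRF9 fell at 6 h. IRF1 rose there at both times, though at 2 h it did not pass under every alternative. TYK2 fell after PDS in both lines, and it stood lower in the line with more output. JAK1 stood lower there too and did not pass after PDS in either line. These comparisons share untreated libraries, and no cause was tested.

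Of the 39 other pathway genes tested, 5 rose and 13 fell in PEO1 BRCA+ at 2 h and 7 rose and 12 fell at 6 h. Of all genes in that line 26.4% rose and 26.2% fell at 2 h, and 27% rose and 26% fell at 6 h. In PEO4 9 rose and 15 fell at 2 h, and 12 rose and 18 fell at 6 h, with a median of -0.11 against -0.03 for all genes at 6 h. Of all genes in PEO4 33.3% rose and 32% fell at 2 h, and 34.6% rose and 35.2% fell at 6 h. IFNGR2, a receptor subunit for interferon gamma, was the furthest down after PDS in each line and at each time. It fell 3.05-fold and 2.55-fold in PEO1 BRCA+ and 3.81-fold and 3.50-fold in PEO4 at 2 h and 6 h. In PEO4 the inhibitor CISH rose 8.96-fold at 2 h and 2.54-fold at 6 h, and SOCS2 2.48-fold and 6.59-fold. USP18, a protease that removes ISG15 and restrains the receptor, fell 3.20-fold there at 6 h, from 35.1 ± 6.30 to 11.0 ± 1.55 CPM. IFNL1 had 39 to 53 counts in untreated PEO4 libraries, 64 to 80 at 2 h and 22 to 32 at 6 h, or means of 2.12, 1.95 and 0.78 CPM. As a class, inhibitors were split in PEO4 at 6 h, with 8 of 20 up and 10 down, against 34.6% and 35.2% of all genes.

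Over the 18 libraries of the B pair, the level order of IRF9 ran from untreated PEO4 through PEO4 at 2 h and 6 h to PEO1 BRCA+ untreated, at 2 h and at 6 h, and of these neighbours PEO1 BRCA+ untreated and 2 h overlapped. STAT2 had the same order, with overlap of PEO4 at 6 h and untreated PEO1 BRCA+. Likeness was measured as Pearson's r of log2 CPM over these 18 libraries, which share line and treatment, and is a description. Among the members STAT2 and IRF9 were most alike (r = 0.965 over 18 libraries, 0.757 within the 9 of PEO1 BRCA+ and 0.959 within the 9 of PEO4). Of 10240 genes with a mean log2 CPM of at least 3, the one most like IRF9 was ZNF160 (r = 0.991, 0.739 and 0.994 in the same order), like STAT2 SH3PXD2A (0.991, 0.949 and 0.992), like IRF7 CRB2 (0.978, 0.984 and 0.979) and like IRF1 BTBD2 (0.949, 0.873 and 0.979). For JAK1 it was CTDSPL2 (0.980, 0.821 and 0.707), for TYK2 PLXNA1 (0.982, 0.944 and 0.985), for IRF3 ST6GALNAC4 (0.935, 0.873 and 0.409) and for IFNAR1 RXRA (0.898, 0.789 and 0.953). As many as 451 genes exceeded 0.9 with JAK1, 383 with STAT2 and 376 with IRF9, so a single closest gene says little about them.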

How the data were processed

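PolyA RNA-seq reads of 24 libraries had been trimmed with fastp, checked with FastQC, aligned to hg38 with STAR and counted per gene, with featureCounts named in the submitters' processing notes, per the labels and the study's methods. Versions and the strand setting are not given in the sources used here. The values deposited by the authors are raw gene counts, in separate tables for the A pair (6 libraries) and the B pair (18). From these, edgeR 4.0.16 (R 4.3.3) was run per table with filterByExpr, which kept 15882 and 17020 genes, TMM factors, and a robust quasi-likelihood test over all groups of a table, with Benjamini-Hochberg adjustment over all genes. CPM uses TMM-scaled library sizes, and intervals are the fitted value ± 1.96 SE. Alternatives were DESeq2 1.42.0, other scalings and filters, a replicate block, the compared groups alone, another fold limit and leaving out each replicate. The scripts were tested on simulated data. The smallest chi-square between replicates was 2.13 per degree of freedom, so no library was a copy of another of its group. Libraries of different groups were not compared in this way. Members had 40 or more counts in every library, fewest for IRF7, where counting noise weighs most.

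The members and lists were chosen with earlier results of these data known. Named list genes were at most the 2 passing with the largest rise and the 2 with the largest fall per comparison, and some genes are not reported here. Likeness used the single most similar gene for each member reported. Transcript lengths came from GENCODE 44 and positions from RefSeq on GRCh38.p14, used for names and windows only. Of the 9 members, 6 had a promoter window.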

Additional observations from a re-analysis of the deposited data

Results flagged for a closer look

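The response to PDS differed between PEO4 and PEO1 BRCA+ by the interaction test in 9 cases, given as the log2 fold change in PEO4 minus that in PEO1 BRCA+. At 2 h the differences were -0.32 for IFNAR1, -0.36 for TYK2, -0.50 for IRF1, -1.24 for IRF7 and -0.38 for IRF9. At 6 h they were -0.82 for STAT2, -1.49 for IRF1, -1.72 for IRF7 and -1.91 for IRF9. All have edgeR adjusted p values below 0.05, and IRF1 moved in opposite directions in the lines, with both changes passing, at 2 h and at 6 h. At 2 h neither IRF1 change passed under every alternative. The rise in PEO1 BRCA+ gave an edgeR adjusted p = 0.519 under library totals. The fall in PEO4 gave 0.0558 with the compared groups alone.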

How the results depend on the processing

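Of 90 fold changes of the 9 genes, 58 passed the test, 0 of those changed sign and 7 no longer passed under at least 1 alternative. Over 1359 refits, 1260 kept direction and side of the threshold, 42 no longer passed, 32 newly passed and 25 changed sign. The sign changes concerned genes that had not passed. After PDS, JAK1 in PEO1 BRCA+ was -0.0699 at 2 h and -0.0827 at 6 h under library totals and -0.0014 and -0.0247 under upper quartile; at 2 h in PEO4 it was -0.1067, -0.0403 and, with a minimum count of 50, -0.0096. IRF3 was -0.0288 under library totals at 2 h in PEO1 BRCA+ and 0.0042 with no filter at 6 h in PEO4. Library totals moved the median of all genes by -0.147 and -0.146 in PEO1 BRCA+ and by -0.128 and -0.16 in PEO4 at 2 h and 6 h.

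Leaving out single replicates in PEO1 BRCA+ gave -0.0654 to 0.0262 (2 h), -0.1178 to 0.0163 (6 h) and -0.0868 to 0.038 (6 h against 2 h) for IFNAR1, -0.1517 to 0.0565 for IRF9 at 2 h, and, at 6 h against 2 h, -0.0314 to 0.0137 for IFNAR2 and -0.0463 to 0.0169 for JAK1. It gave -0.1219 to 0.0278 for IFNAR2 between the untreated B lines and -0.0539 to 0.0327 for IRF3 at 6 h in PEO4.

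With a log2 limit of 0.5, called genes numbered 1 and 2 in PEO1 BRCA+ at 2 h and 6 h, and 3 and 4 in PEO4 at 2 h and at 6 h against 2 h. The share of all genes called at 0.5 was not taken, so these counts have no background beside them. At 6 h in PEO1 BRCA+ 0 were called with no filter, and 0 to 1 without single replicates. At 6 h against 2 h in that line 1 passed under library totals, 4 with the compared groups alone and 1 to 2 without single replicates. Of the calls by fold, IFNAR1 in the A pair and IRF1 in PEO4 at 6 h fell just inside the limit under some alternatives, so that called genes went from 5 to 4 and from 4 to 3. The output list in PEO1 BRCA+ gave 13 up and 10 down at 2 h and 6 up and 13 down at 6 h under library totals, against 23 and 4, and 11 and 6. The causes were not tested. With the replicate block, 4 rather than 5 genes passed in PEO1 BRCA+ at 2 h and 4 rather than 5 were called in the A pair, and no other count of the 9 changed. Same-numbered libraries correlated at -0.158 to 0.134 over 48 pairs, 1 of them over 0.1. A pair with different numbers, PEO4 after 2 h of PDS replicate 2 and untreated replicate 3, gave 0.179. These values show no common shift by number, but they cannot show that the cultures were unpaired. The low depth of IRF7 in PEO1 (40 to 90 counts) limits its precision.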
